A study of Mus musculus with 12 samples.

Results

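Transcripts of 32 translation factors outside eIF3 were measured in mouse liver after siRNA against Eif3m. They comprise initiation factors, elongation factors, release factors, the recycling factor Abce1, the poly(A)-binding protein Pabpc1 and the ribosome anti-association factor Eif6. The rule names gene symbols and uses no measured values, and each symbol matched 1 Ensembl gene among the 50686 of the deposited count table. All 32 were among the 14248 genes that passed the filter on low counts. There were 4 groups of 3 libraries, namely day 13 Eif3m siRNA, day 13 control siRNA, day 9 Eif3m siRNA and day 9 control siRNA. All mice were of the FVB/N strain, were injected at 6 to 8 weeks of age and received lipid nanoparticles by tail vein. The dose was 0.5 mg/kg in every group, and 1 injection was given per interval of 5 days. The number of injections received by day 9 and by day 13 is not given here and may differ. The control siRNA was a scrambled luciferase sequence, so control livers had been exposed to nanoparticles and siRNA as well. Livers were ground whole and hold RNA of every liver cell type. The labels do not state whether each library came from its own animal, and every p-value rests on library-to-library spread alone, which may be technical. In such bulk RNA, fewer cells of a type and less RNA per cell cannot be told apart.

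Translation starts when eIF2 brings the initiator tRNA to the small ribosomal subunit together with eIF1, eIF1A, eIF5 and eIF3, while the eIF4 factors bind the cap of the messenger and unwind it. Elongation then cycles between eEF1A, which delivers aminoacyl-tRNA, and eEF2, which moves the ribosome, until release factors free the chain and ABCE1 splits the ribosome. In mammals the messengers of ribosomal proteins, and of several of these factors such as eEF1A, eEF2 and the poly(A)-binding protein, begin with a run of pyrimidines through which mTOR signalling controls their own translation.

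Libraries held 7650269 to 9630027 counts at day 13 and 38783564 to 54538581 counts at day 9. Library names form a separate series at each day. Differences between the days therefore cannot be told apart from differences between the series or in depth. The targeted transcript, Eif3m, had 2.52, 2.41 and 2.19 CPM (counts divided by the scaled library size) in the day 13 siRNA livers, against 39.8, 38.0 and 31.2 CPM in the day 13 control livers. It had 4.88, 4.78 and 4.71 CPM in the day 9 siRNA livers, against 45.1, 44.1 and 45.4 CPM in the day 9 control livers. Day 13 siRNA replicate 2 and day 13 control replicate 3 stood apart from their groups by transcript length. With genes split by length into 4 classes of equal size, the shortest class lay at medians of -0.26 and -0.24 in these libraries and the longest class at 0.25 and 0.29, as log2 CPM minus the mean of the other 2 libraries of the group. Markers of other cell types also moved with the siRNA, and no listed marker was at 0 in all libraries. Of all genes tested, 12.8% rose and 10.9% fell at day 13, and 5.94% rose and 6.84% fell at day 9. Of 12 Kupffer cell markers, 11 fell at day 13, with summed levels of 343 to 439 CPM in siRNA livers and 660 to 738 CPM in control livers, while at day 9 4 fell and 1 rose (630 to 722 and 587 to 732 CPM). Of 6 tested erythroid markers, 4 fell at day 13 (summed 705 to 1852 CPM in siRNA livers and 2107 to 5966 CPM in control livers). Of 11 tested monocyte and macrophage markers, 3 fell at day 13 (95.6 to 109 and 138 to 186 CPM) and 3 rose at day 9 (134 to 155 and 63.5 to 78.4 CPM). Among 9 hepatocyte markers, 2 rose and 3 fell at day 13 (106020 to 163673 CPM in siRNA livers and 177395 to 201808 CPM in control livers), and 1 fell at day 9 (96803 to 105119 and 122219 to 127732 CPM). These sums mostly follow Alb, which averaged 102886 CPM over all libraries. The median log2 fold change of the hepatocyte markers was -0.03 at day 13 and 0.08 at day 9. Of 10 endothelial and 10 stellate cell markers, 3 each fell at day 13 and 1 each rose at day 9. Among 6 cholangiocyte markers 1 rose at day 13, among 12 proliferation markers 3 rose at day 9, and none of 10 lymphocyte or 3 neutrophil markers passed in edgeR. The part of these cell types in the factor results was not tested.

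The factor transcripts were mostly higher after Eif3m siRNA, with a larger median effect at day 13 than at day 9, and none passed as lower in edgeR. At day 13, 21 of the 32 rose and 0 fell, where 12.8% of all genes tested rose and 10.9% fell. At day 9, 14 of the 32 rose and 0 fell, where 5.94% of all genes rose and 6.84% fell. Genes were called at an adjusted p under 0.05 in edgeR's quasi-likelihood test with Benjamini-Hochberg adjustment over all genes, from which every adjusted p here comes. At an unadjusted p under 0.05, 26 factors were higher and 0 lower at day 13, and 19 were higher and 0 lower at day 9. DESeq2 and limma-voom called 24 and 21 factors higher and 0 lower at day 13, and 15 and 14 higher and 0 lower at day 9. The median log2 fold change, siRNA over control, was 0.52 at day 13 and 0.30 at day 9, beside medians of 0.00 and 0.01 over all genes.

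The summed level of the 32 factors was 16897 to 18495 CPM in day 13 siRNA livers and 8540 to 9757 CPM in day 13 control livers. At day 9 it was 13413 to 13857 CPM in siRNA livers and 9492 to 9966 CPM in control livers. They thus took 1.68% to 1.89% of all counts in day 13 siRNA livers, against 0.841% to 0.881% in controls, and 1.41% to 1.5% in day 9 siRNA livers, against 0.952% to 0.972% in controls. Levels did not overlap between the groups, with siRNA livers higher, for 25 factors at day 13 and 25 at day 9, where 17.2% and 22.5% of all genes did so. For 22 factors this held at both days, and for 0 factors did siRNA livers lie wholly below controls (16% of all genes at day 13 and 21% at day 9). Called at both days were 13 factors, where 3.54% of all genes rose at both. Another 8 passed only at day 13, 1 only at day 9, and 10 at neither.

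**Figure D1:**
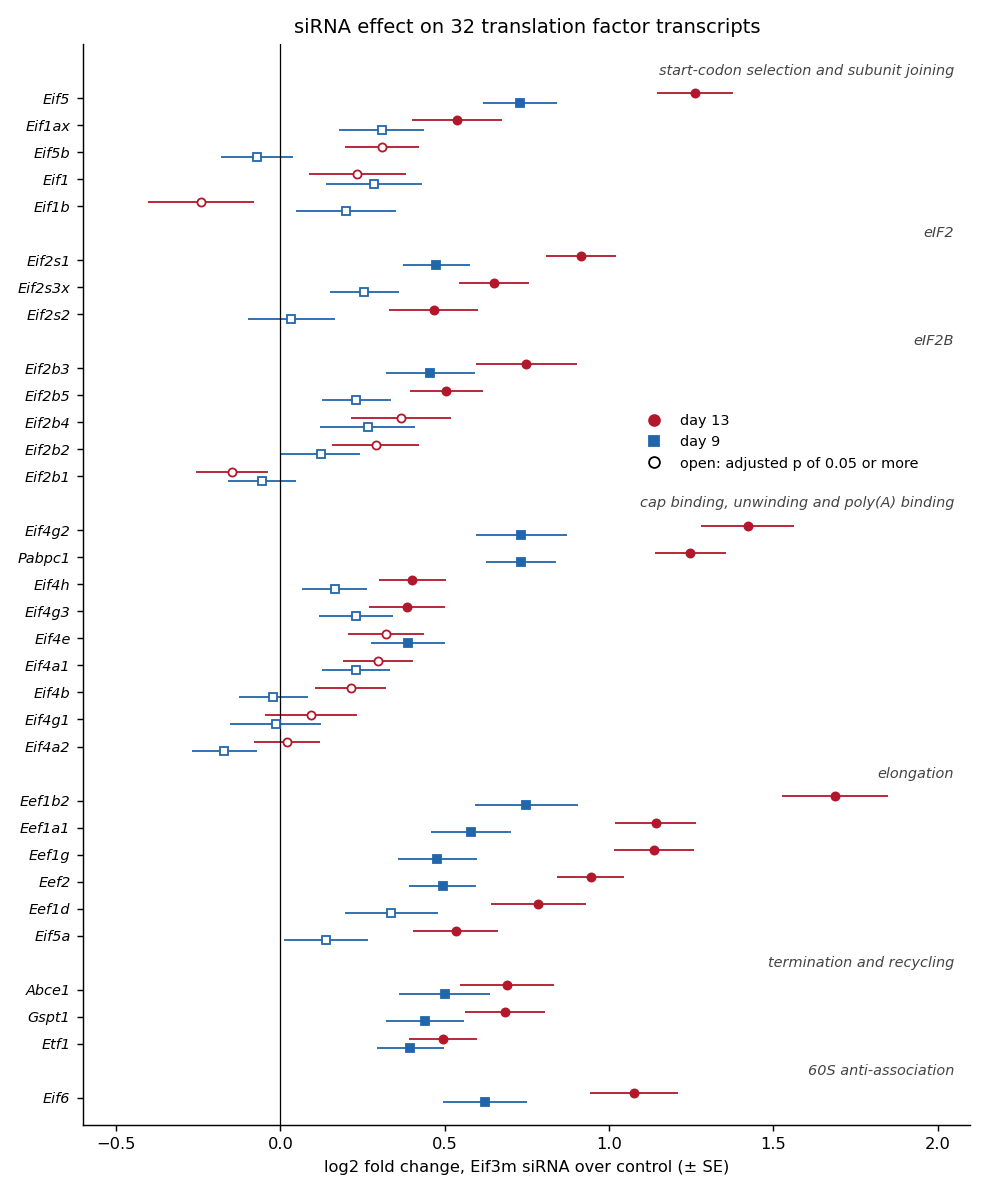
The plot gives the log2 fold change of each of the 32 factor transcripts (Eif3m siRNA over control, with its standard error) by step of translation, day 13 as red circles and day 9 as blue squares, with open symbols where the adjusted p was 0.05 or more. All 6 elongation factors and all 3 termination and recycling factors are filled at day 13, whereas most cap-binding factors lie closer to 0.

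Among the 5 factors of start-codon selection and subunit joining, 2 rose at day 13 and 1 at day 9. Eif5, the GTPase activator of eIF2, had 403, 491 and 440 CPM in day 13 siRNA livers and 164, 201 and 190 CPM in day 13 control livers. In day 9 siRNA livers it had 362, 404 and 391 CPM, against 217, 249 and 232 CPM in day 9 control livers. Every siRNA library lay above every control library at both days. The change was 2.40-fold at day 13 (log2 fold change 1.26, SE 0.115, adjusted p = 9.5e-06) and 1.66-fold at day 9 (0.73, SE 0.113, adjusted p = 0.00127). Eif1ax, which encodes eIF1A and helps the scanning complex, rose at day 13 (log2 fold change 0.54, SE 0.136, adjusted p = 0.0111), a call that was lost without day 13 siRNA replicate 3 (0.49, adjusted p = 0.0512). Its day 9 value of 0.31 did not pass (adjusted p = 0.137).

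The other 3 factors of this step passed at neither day. Eif1, the gatekeeper of start-codon choice, averaged 423 ± 76.0 CPM in day 13 siRNA livers and 360 ± 52.1 CPM in controls (SD, n = 3), with overlapping groups. Its paralog Eif1b had log2 fold changes of -0.24 at day 13 and 0.20 at day 9, and without day 13 control replicate 3 the day 13 value was -0.43 with an adjusted p of 0.0448. Eif5b, the GTPase that joins the subunits, stood at 0.31 at day 13 (adjusted p = 0.061) and -0.07 at day 9 (adjusted p = 0.729). Without day 9 control replicate 1 its day 13 value passed, as it did without day 13 siRNA replicate 1 (adjusted p of 0.0412 and 0.0491 in these fits).

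All 3 subunits of eIF2, the carrier of initiator tRNA, rose at day 13, and Eif2s1 alone passed at day 9. Eif2s1 encodes the alpha subunit, whose phosphorylation by stress kinases holds back initiation. It had 67.0, 61.0 and 67.8 CPM in day 13 siRNA livers and 30.5, 38.6 and 34.7 CPM in day 13 control livers. The day 9 levels were 49.3, 53.7 and 50.1 CPM in siRNA livers and 36.3, 36.7 and 37.4 CPM in control livers. The groups did not overlap, and the change was 1.89-fold at day 13 (0.91, SE 0.107, adjusted p = 5.57e-05) and 1.39-fold at day 9 (0.47, SE 0.101, adjusted p = 0.00819).

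Eif2s3x, the X-linked gene of the GTP-binding gamma subunit, had 219, 220.3 and 217 CPM in day 13 siRNA livers, against 120.3, 144 and 154 CPM in control livers. It rose 1.57-fold at day 13 (0.65, SE 0.106, adjusted p = 0.000647), with a day 9 value of 0.26 (adjusted p = 0.128). Its Y-linked paralog Eif2s3y had 0 counts in all 12 libraries. Eif2s2, the beta subunit, rose at day 13 (0.47, SE 0.136, adjusted p = 0.0237) and stood at 0.03 at day 9 (adjusted p = 0.904). That day 13 call was lost without siRNA replicate 3, control replicate 1 or control replicate 3 (adjusted p of 0.0832 to 0.130). Per kilobase of merged exons, the 3 subunit transcripts had unequal levels, 57.3 ± 0.491 CPM per kb for Eif2s3x, 15.5 ± 1.87 for Eif2s2 and 13.2 ± 0.748 for Eif2s1 in day 13 siRNA livers (SD, n = 3). In day 13 control livers they had 36.5 ± 4.5, 11.2 ± 2.27 and 6.99 ± 0.815 CPM per kb.

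Of the 5 subunits of eIF2B, the exchange factor that recharges eIF2 with GTP, 2 rose at day 13 and 1 at day 9. Eif2b3, the gamma subunit, had 17.8, 13.5 and 14.5 CPM in day 13 siRNA livers, against 9.69, 8.41 and 8.99 CPM in day 13 control livers. In day 9 siRNA livers it had 8.36, 9.32 and 8.36 CPM, against 7.33, 5.90 and 5.77 CPM in day 9 control livers. The groups did not overlap at either day, and the log2 fold change was 0.75 at day 13 (SE 0.154, adjusted p = 0.00319) and 0.46 at day 9 (SE 0.135, adjusted p = 0.041). It was the lowest of the 32 factors per kilobase in every group, at 2.34 CPM per kb in day 13 siRNA livers and 1.38 in controls, with 59 to 146 counts per day 13 library.

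Eif2b5, the catalytic epsilon subunit, rose at day 13 (0.50, SE 0.111, adjusted p = 0.00482) and had a day 9 value of 0.23 (adjusted p = 0.171). The regulatory subunits did not pass at either day. Eif2b4 (delta) had log2 fold changes of 0.37 at day 13 and 0.27 at day 9, Eif2b2 (beta) had 0.29 and 0.12, and Eif2b1 (alpha) had -0.15 and -0.06. For Eif2b1 the 95% interval ran from -0.40 to 0.11 at day 13, and for Eif2b4 from 0.02 to 0.72. Without day 13 control replicate 1, Eif2b4 passed at day 13 (0.53, adjusted p = 0.0291).

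Of the 9 factors that bind the cap, unwind the messenger or bind the poly(A) tail, 4 rose at day 13 and 3 at day 9. Eif4g2 (also called Dap5) is a shortened relative of eIF4G that lacks the cap-binding protein's site and serves cap-independent initiation. Its level was 648, 799 and 726 CPM in day 13 siRNA livers and 225, 260.5 and 325 CPM in day 13 control livers. The day 9 levels were 762, 853 and 784 CPM in siRNA livers and 435, 495 and 513 CPM in control livers. No siRNA library came near a control library at either day. The change was 2.68-fold at day 13 (1.42, SE 0.141, adjusted p = 1.57e-05) and 1.66-fold at day 9 (0.73, SE 0.138, adjusted p = 0.00407).

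Pabpc1, the main cytoplasmic poly(A)-binding protein, had 589, 682 and 737 CPM in day 13 siRNA livers and 270.2, 300.1 and 276 CPM in day 13 control livers. In day 9 siRNA livers it had 516, 544 and 511 CPM, against 311, 329.9 and 304 CPM in day 9 control livers. The groups were far apart at each day, with 2.37-fold more at day 13 (1.25, SE 0.108, adjusted p = 6.64e-06) and 1.66-fold more at day 9 (0.73, SE 0.107, adjusted p = 0.000805). Pabpc1 had the smallest adjusted p of the 32 factors at both days.

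The classical scaffolds moved less than Eif4g2. Eif4g1 had 322, 455 and 349 CPM in day 13 siRNA livers and 315, 322 and 419 CPM in day 13 control livers, where the highest library of each group is the one that stood apart by length. On day 9 the levels were 402, 403 and 387 CPM in siRNA livers and 391, 417 and 397 CPM in control livers. The groups overlapped at both days, with log2 fold changes of 0.09 (95% interval -0.23 to 0.41) and -0.01 (-0.34 to 0.31). Eif4g3, the third scaffold, rose at day 13 (0.38, SE 0.116, adjusted p = 0.0274) with a day 9 value of 0.23. That call was lost without any of 4 day 13 libraries in turn (siRNA replicates 2 and 3, control replicates 1 and 2), with adjusted p of 0.0729 to 0.0929.

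Eif4e, the cap-binding protein, was the only factor called at day 9 and not at day 13. It averaged 66.3 ± 7.59 CPM in day 13 siRNA livers and 53.1 ± 5.58 CPM in controls, and 48.1 ± 1.14 CPM in day 9 siRNA livers and 36.8 ± 2.59 CPM in controls (SD, n = 3). The log2 fold changes were close, 0.32 (adjusted p = 0.0599) and 0.39 (adjusted p = 0.0366), and the difference between the days was -0.07 (SE 0.161, adjusted p = 0.875). The day 9 call was lost when any 1 of the 6 day 9 libraries was left out. At day 13 Eif4e passed in DESeq2 (adjusted p = 0.038), without siRNA replicate 2 or control replicate 2 (adjusted p of 0.0259 to 0.0351) and with both libraries that stood apart left out (adjusted p = 0.0434).

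Eif4h, a cofactor of the helicase, rose at day 13 (0.40, SE 0.101, adjusted p = 0.0106). The helicase Eif4a1 stood at 0.30 at day 13 (adjusted p = 0.0561) and 0.23 at day 9. At day 13 Eif4a1 passed in 1 of 9 other settings, namely DESeq2 (adjusted p = 0.0224). It also passed in 1 of 12 fits with a library left out, the fit without day 13 control replicate 2 (0.36, adjusted p = 0.0461). Its paralog Eif4a2 stood at 0.02 at day 13, which turned to -0.03 under upper-quartile scaling, and at -0.17 at day 9 (adjusted p = 0.292). The helicase activator Eif4b stood at 0.21 at day 13 (adjusted p = 0.169) and -0.02 at day 9.

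All 6 elongation factors rose at day 13 and 4 rose at day 9. Eef1a1, which delivers aminoacyl-tRNA, had 9505, 8225 and 9791 CPM in day 13 siRNA livers and 4258, 4562 and 3645 CPM in day 13 control livers. On day 9 Eef1a1 had 6415, 6415 and 6719 CPM in siRNA livers and 4145, 4424 and 4509 CPM in control livers. The rise was 2.21-fold at day 13 (1.14, SE 0.123, adjusted p = 2.97e-05) and 1.49-fold at day 9 (0.58, SE 0.122, adjusted p = 0.00742). Per kilobase it was the most abundant of the 32 in every group, with 3680 ± 334 CPM per kb in day 13 siRNA livers and 1667 ± 187 in day 13 controls (SD, n = 3). It made up 48.7% to 53.0% of the counts of the 32 factors in day 13 siRNA livers and 42.7% to 46.8% in controls. The tissue-specific paralog Eef1a2 did not reach the filter on low counts.

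Eef2, the translocase, had 2310.2, 2629.9 and 2364 CPM in day 13 siRNA livers and 1280.2, 1275 and 1239 CPM in day 13 control livers. On day 9 Eef2 had 1916, 1957 and 1894 CPM in siRNA livers, against 1367, 1329.6 and 1399 CPM in control livers. The spread within each group was small beside the gap between groups, which was 1.92-fold at day 13 (0.94, SE 0.102, adjusted p = 2.97e-05) and 1.41-fold at day 9 (0.49, SE 0.101, adjusted p = 0.00638).

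The 3 subunits of eEF1B, the complex that recharges eEF1A with GTP, rose together at day 13. Eef1b2, the catalytic beta subunit, had 529, 380.4 and 525 CPM in day 13 siRNA livers and 148, 182 and 115 CPM in day 13 control livers. In day 9 siRNA livers it had 193, 211 and 211 CPM, against 119, 121 and 127 CPM in day 9 control livers. Groups did not overlap, and the day 13 siRNA library with the least was replicate 2, one of the libraries that stood apart. The change was 3.22-fold at day 13 (1.69, SE 0.162, adjusted p = 1.23e-05), the largest of the 32, and 1.68-fold at day 9 (0.75, SE 0.157, adjusted p = 0.00742).

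Eef1g, the gamma subunit, had 407, 315 and 409 CPM in day 13 siRNA livers and 176, 188 and 150.0 CPM in day 13 control livers. The day 9 levels were 202, 220.5 and 209.5 CPM in siRNA livers and 148, 149 and 157 CPM in control livers. It rose 2.20-fold at day 13 (1.14, SE 0.122, adjusted p = 2.97e-05) and 1.39-fold at day 9 (0.48, SE 0.120, adjusted p = 0.02). Eef1d, a second exchange subunit, rose at day 13 (0.79, SE 0.145, adjusted p = 0.00152) and stood at 0.34 at day 9 (adjusted p = 0.136). Eif5a, the hypusine-bearing factor that eases peptide bonds at stalling sequences, rose at day 13 (0.53, SE 0.130, adjusted p = 0.00879), with 0.14 at day 9 (adjusted p = 0.532).

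**Figure D2:**
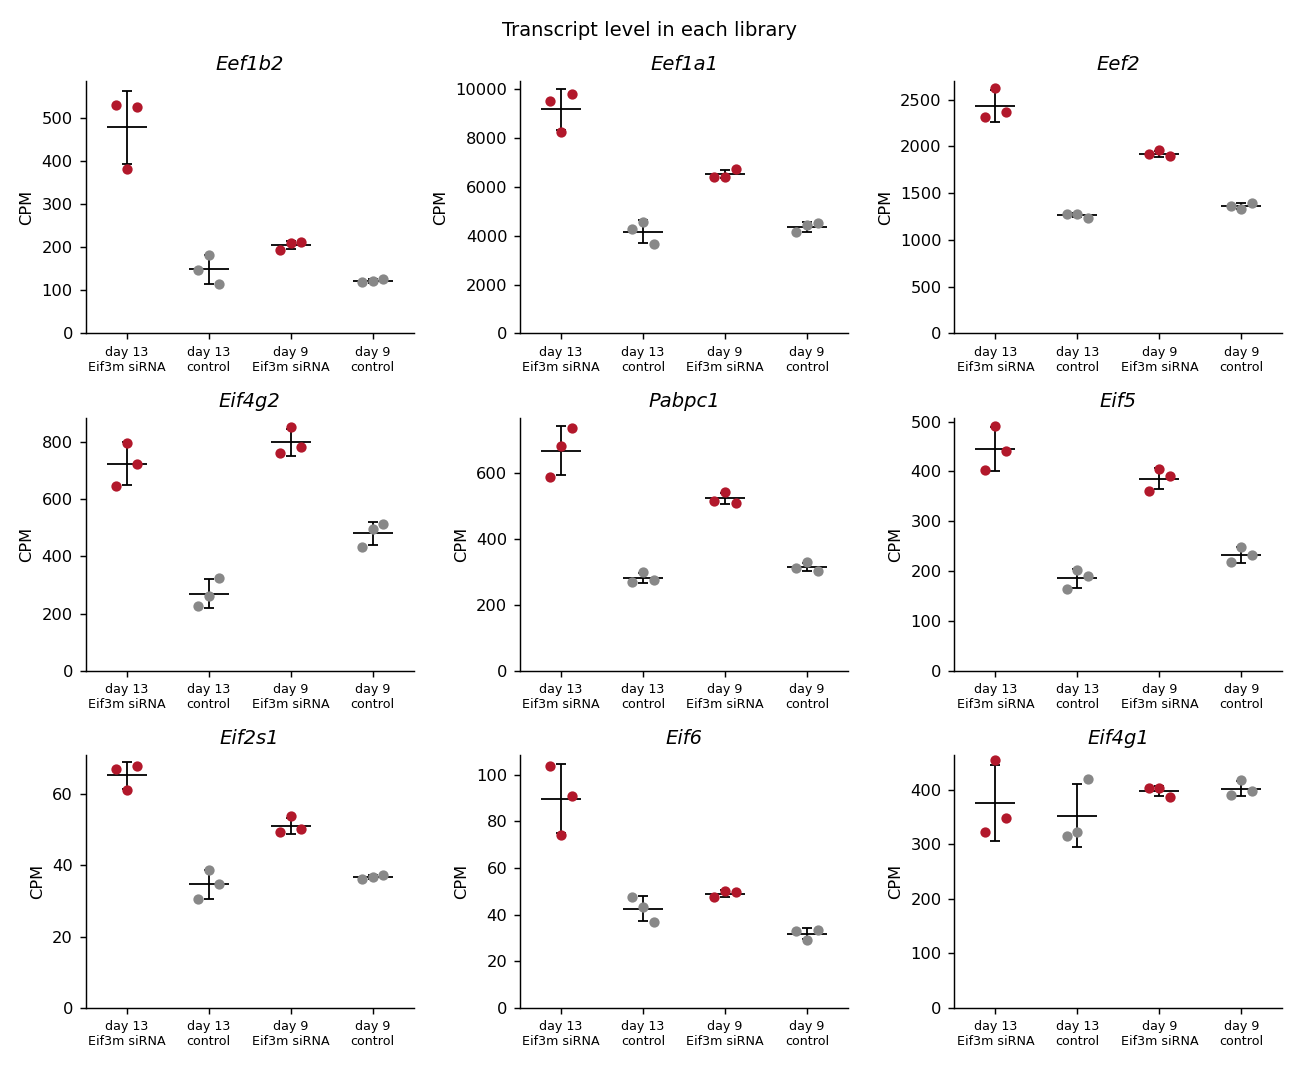
Each panel gives the CPM of 1 transcript in all 12 libraries (points), with the group mean and SD as bars, in the order day 13 Eif3m siRNA, day 13 control, day 9 Eif3m siRNA and day 9 control. For Eef1b2, Eef1a1, Eef2, Eif4g2, Pabpc1, Eif5, Eif2s1 and Eif6 the siRNA points (red) lie above the control points (grey) at both days, whereas those of Eif4g1 overlap.

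RefSeq promoters (GRCm38.p6) were on hand for 25 of the 32 factors, and the missing ones, of Eif2b3, Eif4g2, Pabpc1, Eef1d, Eef1g, Etf1 and Eif6, include 6 of the 13 factors called at both days. The windows below run from 40 bases before to 30 bases after the annotated start, 5′ to 3′ on the gene's strand. Capitals mark the letters TATAA and runs of at least 7 bases that are each C or T, the composition of the pyrimidine tract named above. Eef2 and Eef1a1 are shown as the translocase and the most abundant factor, Eef1b2 as the factor with the largest change, and Eif2s3x as the eIF2 subunit with such a run. The windows lie at chr10:81176591-81176660 (plus strand) for Eef2, chr9:78481695-78481764 (minus strand) for Eef1a1, chr1:63176791-63176860 (plus strand) for Eef1b2 and chrX:94212622-94212691 (minus strand) for Eif2s3x. In the GENCODE annotation of GRCm38 the genes span chr10:81176631-81182498 (Eef2), chr9:78478449-78489151 (Eef1a1) and chr1:63176825-63180486 (Eef1b2), so that the RefSeq start of Eef1a1 lies inside its gene.
Eef2: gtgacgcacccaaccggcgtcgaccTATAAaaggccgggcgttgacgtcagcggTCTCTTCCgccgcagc
Eef1a1: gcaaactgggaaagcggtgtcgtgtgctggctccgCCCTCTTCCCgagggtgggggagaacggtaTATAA
Eef1b2: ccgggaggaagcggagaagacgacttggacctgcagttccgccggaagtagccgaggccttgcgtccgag
Eif2s3x: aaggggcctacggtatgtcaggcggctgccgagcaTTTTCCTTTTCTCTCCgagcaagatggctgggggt

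Eef2 holds TATAA ahead of the start and a pyrimidine run after it, Eef1a1 holds a run across its annotated start and TATAA after it, Eif2s3x holds a run alone and Eef1b2 holds neither in this window. For Eef1a1 the RefSeq and GENCODE starts differ, and whether its run begins the messenger was not tested. It is counted below as a factor with a run. Between 40 bases before and 50 bases after the start, on the gene's strand, a pyrimidine run was found in 11 of 25 factor promoters (44%), in 52 of 60 ribosomal protein promoters (86.7%) and in 46.5% of the 27025 promoters in the table. TATAA was found in 3 factor promoters (12%), those of Eif1, Eef1a1 and Eef2, in 16.7% of ribosomal protein promoters and in 6.44% of all. Factors with a pyrimidine run had median log2 fold changes of 0.50 at day 13 and 0.26 at day 9, and the 14 without had 0.38 and 0.21, with the 7 factors that lack a promoter entry in neither group. The window includes bases before the start, and 46.5% of all promoters match. The split therefore does not single out messengers that begin with such a run. The sequence TGATGNAA or its reverse complement TTNCATCA, the core of the element bound by the stress factor ATF4, was found from 250 bases before to 50 after the start in 1 factor promoter (4%), that of Eif2s3x, and in 4.06% of all promoters. These are matches of letters, not sites. Small nucleolar RNA genes lie in introns of 7 factors, namely Eif5, Eif4a1, Eif4a2, Eif4g1, Eif4g2, Eef1b2 and Eef2. Of these hosts 4 rose at both days, as did 9 of the other 25.

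All 3 factors of termination and recycling rose at both days. Etf1 encodes eRF1, which reads stop codons, and had 122, 142 and 149 CPM in day 13 siRNA livers and 91.0, 99.9 and 102 CPM in day 13 control livers. On day 9 Etf1 had 119, 117 and 121 CPM in siRNA livers and 84.3, 92.9 and 93.7 CPM in control livers. The log2 fold changes were alike, 0.49 at day 13 (SE 0.104, adjusted p = 0.0036) and 0.40 at day 9 (SE 0.102, adjusted p = 0.0218), and their difference had a 95% interval from -0.24 to 0.43.

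Gspt1, the eRF3a GTPase that works with eRF1, had 126, 151 and 138 CPM in day 13 siRNA livers and 71.9, 87.3 and 98.99 CPM in day 13 control livers. In day 9 siRNA livers it had 113, 124 and 119 CPM, against 83.4, 87.5 and 91.1 CPM in day 9 control livers. Groups were separate at both days, with log2 fold changes of 0.68 (SE 0.122, adjusted p = 0.00121) and 0.44 (SE 0.119, adjusted p = 0.0272). Abce1, the ATPase that splits the terminated ribosome, had 114, 151 and 130.4 CPM in day 13 siRNA livers and 65.5, 88.1 and 91.8 CPM in day 13 control livers. At day 9 it had 91.2, 100.5 and 90.9 CPM in siRNA livers and 60.04, 67.4 and 72.3 CPM in control livers. No group overlapped its control, and the log2 fold changes were 0.69 (SE 0.142, adjusted p = 0.00325) and 0.50 (SE 0.139, adjusted p = 0.0309).

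Eif6, which binds the large subunit and keeps it from joining too soon, rose at both days. It had 104, 74.3 and 91.0 CPM in day 13 siRNA livers and 47.5, 43.3 and 36.9 CPM in day 13 control livers. At day 9 it had 47.4, 50.1 and 49.5 CPM in siRNA livers, against 32.8, 29.2 and 33.6 CPM in control livers. No siRNA value fell among the controls, and the change was 2.11-fold at day 13 (1.08, SE 0.134, adjusted p = 9.12e-05) and 1.54-fold at day 9 (0.62, SE 0.129, adjusted p = 0.00672).

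The day 9 calls were sensitive to the number of libraries. Without any 1 of the 6 day 9 libraries, only 8 or 9 of the 14 factors passed at day 9. Eif5, Eif2s1, Eif4g2, Pabpc1, Eef1a1, Eef1b2, Eef2 and Eif6 passed at day 9 whichever library was left out. Eif2b3, Eif4e, Eef1g, Etf1, Gspt1 and Abce1 each failed without 1 or more day 9 libraries. At day 13, 18 of 21 calls held whichever library was left out. With each day fitted on its own 6 libraries, the day 13 calls of Eif4h, Eif5a, Eif2s2 and Eif4g3 were lost (adjusted p of 0.0578 to 0.0967), while Eif1ax, Eif2s3x, Eif2b5 and Eef1d passed at day 9 (adjusted p of 0.0117 to 0.0499). In those separate fits 17 factors rose at day 13 and 18 at day 9, so the order of the counts between the days turned, while the medians were 0.51 and 0.29.

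The difference between the days, as the day 13 effect minus the day 9 effect, was positive for 28 of the 32 factors, but passed the test for Eef1b2 alone and in the positive direction (0.898% of all genes were higher in this difference, 1.66% lower and 2.55% either). For Eef1b2 it was 0.94 (SE 0.223, adjusted p = 0.0448). That call was lost without any 1 of 10 of the 12 libraries, at differences of 0.76 to 0.95 and adjusted p of 0.0598 to 0.127, and held without day 13 siRNA replicate 2 or day 13 control replicate 2. The next in size, Eif4g2 at 0.69 (adjusted p = 0.076) and Eef1g at 0.66 (adjusted p = 0.0572), did not pass. Each passed when one or both of the libraries that stood apart were left out, Eif4g2 at 0.82 without day 13 control replicate 3 and Eef1g at 0.78 without day 13 siRNA replicate 2. At an unadjusted p under 0.05, 14 factors were higher and 0 lower in this difference, and DESeq2 and limma-voom called 9 and 1. The median difference over the 32 was 0.26, beside 0.03 over all genes. As each day has its own series of libraries, day and series cannot be told apart in these differences. The 2 days share no library, and across the 32 factors the day 13 and day 9 effects had a Pearson r of 0.87 and a Spearman rho of 0.88. This is a description over genes, which share the libraries of each day.

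**Figure D3:**
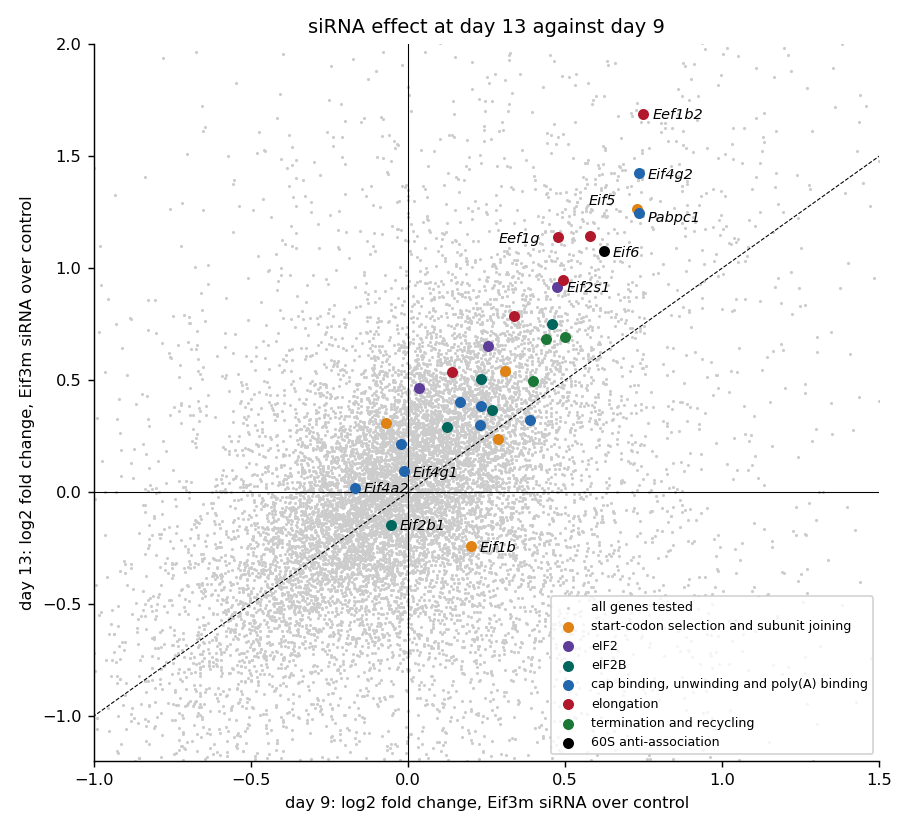
Each point is a gene, with its log2 fold change at day 13 (vertical axis) against that at day 9 (horizontal axis), all genes tested in grey and the 32 factors coloured by step, with a dashed line where the effects are equal. Of the 32 factors 28 lie above the line, and none of them but 1074 other genes lie outside the axes.

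The day 13 values of long and short factor transcripts depended on the libraries. In day 13 control replicate 3, the factors' deviation from the other control libraries rose with length (r = 0.72 with log2 merged exon length over 32 factors), and in day 13 siRNA replicate 2 r was 0.48. In the other day 13 libraries r lay between -0.65 and -0.19, and at day 9 between -0.52 and 0.54, where medians of the shortest class stayed within -0.07 to 0.09. Deviations of a factor cancel out within a group, so some negative r beside a positive r follows from the measure. The factors as a whole were lower in the libraries that stood apart than in their groups, by medians of -0.13 in control replicate 3 and -0.14 in siRNA replicate 2. With both left out, 22 factors rose at day 13 and 15 at day 9, with medians of 0.52 and 0.28. By the 4 length classes from short to long, the factors' day 13 medians were 0.26, 0.80, 0.47 and 0.61, for 4, 10, 10 and 8 factors, beside medians of 0.05, -0.01, -0.02 and -0.01 over all genes of those classes.

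**Figure D4:**
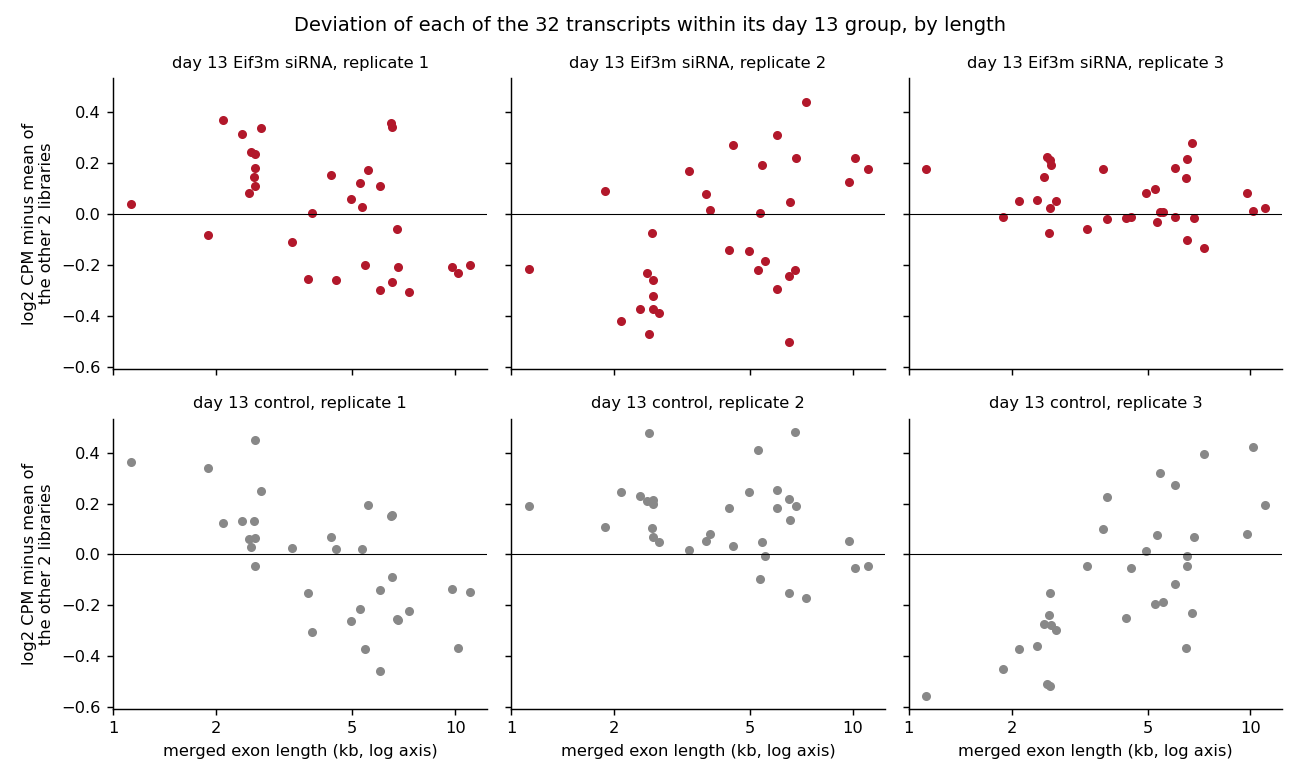
Each point is 1 of the 32 factors in a day 13 library, with its log2 CPM minus the mean of the other 2 libraries of its group (vertical axis) against merged exon length (log axis), siRNA libraries in the upper row and controls in the lower. Short transcripts lie low and long ones high in siRNA replicate 2 (r = 0.48) and control replicate 3 (r = 0.72). Deviations cancel out within a group, so an opposite slope among its other libraries follows from the measure.

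Called regulators and paralogs of these factors went in both directions. Of 45 listed, 42 were tested, and 10 rose and 7 fell at day 13, where 12.8% of all genes tested rose and 10.9% fell. At day 9, 4 rose and 3 fell, where 5.94% of all genes rose and 6.84% fell. The median log2 fold change of the list was 0.07 at each day. Pabpc4, the inducible poly(A)-binding protein, rose most, to 95.7 ± 10.3 CPM in day 13 siRNA livers, against 30.6 ± 1.08 CPM in controls, and to 61.7 ± 5.88 CPM in day 9 siRNA livers, against 35.3 ± 3.14 CPM in controls (SD, n = 3). Its log2 fold changes were 1.65 (SE 0.120, adjusted p = 2.35e-06) and 0.81 (SE 0.113, adjusted p = 0.000652). Paip1, a partner of the poly(A)-binding protein, rose by 0.82 at day 13 (adjusted p = 7.25e-05) and by 0.59 at day 9 (adjusted p = 0.00145). Eif1ad, a relative of eIF1A, rose by 0.54 and 0.48 (adjusted p of 0.0111 and 0.0247). Eif2d, which can place tRNA without eIF2, rose by 0.71 and 0.30 (adjusted p of 0.000195 and 0.0436).

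The regulators with the smallest p among those lower at day 9 were Pdcd4, Eef2k and Eif4ebp2. Eef2k, the kinase that inactivates eEF2, averaged 7.21 ± 2.19 CPM in day 13 siRNA livers and 16.5 ± 4.37 CPM in controls, and 9.26 ± 1.25 CPM in day 9 siRNA livers and 16.9 ± 0.974 CPM in controls (SD, n = 3). Its log2 fold changes were -1.2 (adjusted p = 0.00199) and -0.87 (adjusted p = 0.0111). Eif4ebp2, which sequesters the cap-binding protein, had -0.64 (adjusted p = 0.00076) and -0.34 (adjusted p = 0.0483). Pdcd4, an inhibitor of the eIF4A helicase, fell at both days, with -0.65 at day 9 (adjusted p = 0.00348).

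Regulators of eIF2 phosphorylation differed among themselves. The kinase Eif2ak3 (PERK) had -1.07 at day 13 (adjusted p = 4.14e-05) and 0.12 at day 9 (adjusted p = 0.527), and Impact, an inhibitor of the kinase Gcn2, had -1.10 at day 13 (adjusted p = 0.00324). Ppp1r15a (Gadd34), which recruits the phosphatase of eIF2, rose by 0.98 at day 13 (adjusted p = 0.000424). Its relative Ppp1r15b, which recruits the same phosphatase, had -0.66 (adjusted p = 0.0143), and the heme-regulated kinase Eif2ak1 had -0.30 (adjusted p = 0.0477).

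**Figure D5:**
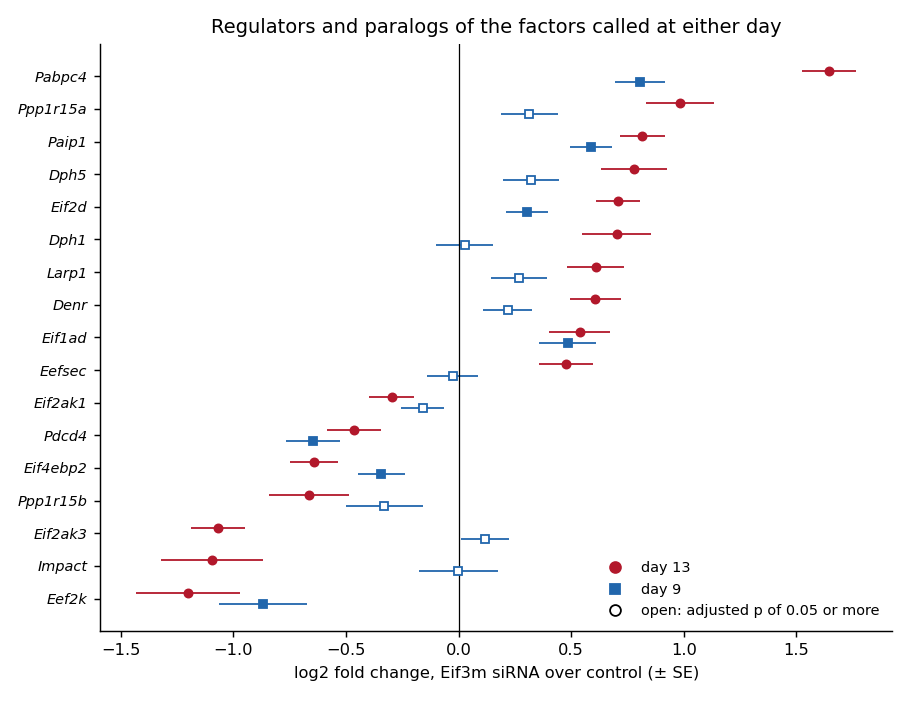
The plot gives log2 fold changes with standard errors for the 17 regulators and paralogs called at either day, day 13 as red circles and day 9 as blue squares, open where the adjusted p was 0.05 or more. Pabpc4 lies highest at 1.65 and Eef2k lowest at -1.2 at day 13, and Eif2ak3 and Impact are filled at day 13 only.

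Other parts of the translation machinery were measured in the same livers. The counts below stand beside 12.8% of all genes tested higher and 10.9% lower at day 13. At day 9 these shares were 5.94% and 6.84%. Of the 13 other eIF3 subunits, 11 rose and 0 fell at day 13 (median 0.67) and 4 rose and 0 fell at day 9 (median 0.25). Eif3j2 (0.88 and 0.50 at day 13 and day 9), Eif3c (0.85 and 0.51) and Eif3b (0.75 and 0.37) rose at both days. So did Eif3a (0.74 and 0.52), while Eif3i rose at day 13 only (1.06). Of 81 cytosolic ribosomal proteins, 69 rose at day 13 (median 1.11) and 33 at day 9 (median 0.50). Rpl9 (1.35 and 0.67), Rpl4 (1.37 and 0.63), Rplp0 (1.45 and 0.67) and Rps4x (1.34 and 0.55) rose at both days. They were the 4 ribosomal proteins with the smallest p at day 13. The counts depended on the fit. With each day fitted on its own libraries, 57 ribosomal proteins and 10 eIF3 subunits rose at day 13 and 68 and 9 at day 9. At day 9, 67 ribosomal proteins and 6 eIF3 subunits rose with both libraries that stood apart left out, and 12 and 3 with the replicate block. At day 13 with both left out, 66 ribosomal proteins rose and 2 fell (median 0.91). In that fit 2 mitochondrial translation factors rose and 1 fell at day 13. Of 11 mitochondrial translation factors, Mtif2 (0.63) and Mtrf1 (0.71) rose at day 13, and at day 9 edgeR and limma-voom called 0, with 0 at an unadjusted p under 0.05, and DESeq2 called 0, with 1. The medians of the mitochondrial factors were 0.16 and -0.05, those of the 32 factors outside eIF3 being 0.52 and 0.30. All these lists share the same 12 libraries, and no test of the difference between lists was made.

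Exons of some factors overlap those of a neighbour, and the strand setting of the counting is not given in the sources used here, so reads of the pair cannot be told apart. This holds for Eif1b with D830035M03Rik, Eif5b with Rev1, Eif2b4 with Snx17, Eif4a2 with Rfc4, Eef1b2 with Ndufs1, Gspt1 with 2610020C07Rik and Eif6 with Gm16098 on opposite strands, and for Eef1d with Naprt on the same strand. Small RNA genes on the same strand overlap exons of Eef1a1 (Gm26377), Eef1b2 (Gm27390), Eif4a2 (Gm49346) and Eif4e (Mir1956). Processed pseudogenes named after Eif1 (3) and Eif2s3x (1) can take part of their reads. Pseudogenes under other names were not counted for any of the factors.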

How the data were processed

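Poly(A) RNA from ground whole liver was sequenced in 12 libraries, and the authors deposited 1 table of gene counts. Per the submitters' processing notes, the tools were STAR 2.5.3a and RSEM 1.3.0 with build mm10. The deposited values are whole numbers and were taken as RSEM expected counts rounded by the authors, as the notes name that tool. Every column was mapped to a sample by its label, and 0 columns were left unused. Of 50686 gene IDs, 50462 had a symbol in GENCODE M21. No 2 libraries of a group agreed within counting noise (chi-square per degree of freedom 12.6 to 53.8).

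Genes were filtered with filterByExpr (minimum count 10), scaled by TMM and fitted over all 12 libraries in edgeR 4.0.16 (R 4.3.3) with 1 mean per group and 8 residual degrees of freedom. The quasi-likelihood test gave the siRNA effect at each day and their difference, with Benjamini-Hochberg adjustment over 14248 genes and a threshold of 0.05. Each SE is the absolute log2 fold change divided by the square root of the F statistic. The 95% intervals use these SEs with 8 degrees of freedom, while the test also draws on spread shared across genes. An interval and its p-value can therefore disagree. CPM used the TMM-scaled library sizes, and lengths are merged exons. DESeq2 1.42.0, limma-voom 3.58.1, other scalings and filters, a replicate block, separate fits per day and each library left out were alternatives. The code was tested on simulated data. Figures were drawn with matplotlib 3.10.9.

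The 32 factors and the other gene lists were chosen with earlier results of these data known. Named are all 32 factors and, of the other pathway lists, up to 4 called genes with the smallest p in each direction at each day. Not every gene that meets this rule is reported here. Ppp1r15b and Eif2ak1 were named after their values were seen. An exact permutation test of 3 libraries against 3 cannot go below p = 0.1, so single values rest on the fit over all genes. Promoter sequences are RefSeq's (GRCm38.p6). The marker lists were used as a check of other cell types; 1 hepatocyte gene of 10 was not matched.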

Additional observations from a re-analysis of the deposited data

Results flagged for a closer look

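The siRNA effect differed between the days for 1 of the 32 factors and for other named genes. The test was that of the difference itself in edgeR, with Benjamini-Hochberg adjustment. Eef1b2 had a day 13 effect larger than its day 9 effect by 0.94 on the log2 scale (adjusted p = 0.0448). Pabpc4, the inducible poly(A)-binding protein, had a difference of 0.84 (adjusted p = 0.0189). Eif3i, a subunit of eIF3, had a difference of 0.89 (adjusted p = 0.0209), with effects of 1.06 at day 13 and 0.17 at day 9. Among named ribosomal proteins, Rps4x had a difference of 0.79 (adjusted p = 0.0336) and Rpl4 of 0.74 (adjusted p = 0.0429). Rpl9 had 0.68 (adjusted p = 0.0447) and Rplp0 had 0.78 (adjusted p = 0.0498). With the replicate block none of the higher differences of Eef1b2, Pabpc4 and Eif3i was called, nor that of any ribosomal protein. Eif2ak3, the kinase PERK, had a difference of -1.19 (adjusted p = 0.00277), with 11.97 ± 1.22 CPM in day 13 siRNA livers and 25.2 ± 0.749 CPM in controls, and 15.5 ± 1.24 CPM in day 9 siRNA livers and 14.3 ± 0.720 CPM in controls (SD, n = 3).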

How the results depend on the processing

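Of the 21 factors called at day 13, 16 were called in every fit run, and of the 14 at day 9, 8 were. Over the settings that kept all libraries or left out both that stood apart, 17 to 24 factors rose at day 13 and 11 to 18 at day 9, with medians of 0.47 to 0.52 and 0.28 to 0.30. Leaving out each library in turn gave 18 to 22 factors higher and 0 to 1 lower at day 13 with medians of 0.44 to 0.63, 8 to 14 higher at day 9 with medians of 0.28 to 0.34, and 0 to 2 higher in the difference between the days. That difference was called for 0 factors with upper-quartile scaling, 2 without the filter on low counts, 9 by DESeq2, 0 with the replicate block and 3 with both libraries that stood apart left out, a setting chosen after seeing the data. For all genes, upper-quartile scaling gave 1574 higher and 1808 lower at day 13, against 1824 and 1553, and moved the median by -0.05.

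Small effects changed sign. Eif4a2 at day 13 was -0.030 with upper-quartile scaling, -0.0041 when genes averaging below 5 CPM were dropped and -0.0098 to 0.029 over left-out libraries. Over left-out libraries Eif5b ran from -0.13 to 0.027, Eif4b from -0.069 to 0.026 and Eif4g1 from -0.033 to 0.020 at day 9, and Eif4g1 from -0.081 to 0.22 at day 13. In the difference between the days, Eif1 ran from -0.19 to 0.077, Eif2b4 from -0.081 to 0.26, Eif4e from -0.14 to 0.026, Eif4a1 from -0.033 to 0.13 and Eif4g1 from -0.053 to 0.23, and Eif2b2 was -0.0097 with both libraries that stood apart left out. The cause was not tested.

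Same-numbered libraries did not deviate together (r of 0.08, -0.07 and -0.01 at day 13 and -0.11, -0.16 and 0.16 at day 9). With the replicate block 19 factors rose at day 13, 11 at day 9 and 0 in the difference between the days, and the differences of Pabpc4 and Eif3i were not called. The shallower day 13 libraries spread more, with a median SD of log2 CPM over the factors of 0.15 in siRNA and 0.17 in control livers, against 0.06 and 0.08 at day 9. Intervals cover the spread between these libraries.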
